A study of Homo sapiens with 6 samples.

Results

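Reads of small nuclear RNAs, small nucleolar RNAs, Cajal body RNAs, 7SK and 7SL were followed in MDA-MB-231 cells, a line derived from a human breast cancer of the triple-negative type. Rows of the deposited count tables were chosen by name (SNORA, SNORD, SCARNA, RNU, RN7SK and RN7SL followed by their numbers) and were selected on a mean of at least 1 CPM over the 3 libraries of the drug experiment, where CPM is the count scaled by the library's total. The rule gave 48 of the 34157 rows of that table. They are 10 snRNA rows, 20 box C/D and 13 box H/ACA snoRNA rows, 2 Cajal body RNA rows and 3 rows of 7SK and 7SL. Of these, 34 rows hold 1 locus and 14 hold several loci under 1 name.

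The drug experiment compared cells given the vehicle DMSO with cells given rebastinib (Reb), an inhibitor of CDK16 and other kinases, at 1 μM or 5 μM for 48 h. The knockdown experiment compared stable lentiviral lines of the same cells that carried a scramble shRNA or 1 of the hairpins CDK16-sh1 and CDK16-sh2, where an shRNA is a hairpin RNA directed against a transcript. Each of the 6 conditions had 1 library, so no difference below has a replicate check. The level limit used the drug libraries, so values in that experiment are given as a description with no test.

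Small nuclear RNAs are the RNA cores of the particles that splice pre-mRNA or, for U7, trim histone mRNA. Box C/D and box H/ACA snoRNAs guide methylation and pseudouridylation of ribosomal RNA, Cajal body RNAs guide the same changes in snRNAs, and the box C/D RNA U3 is needed to cut the ribosomal RNA precursor. 7SL is the scaffold of the signal recognition particle, and 7SK holds the elongation factor P-TEFb inactive. The snRNAs, U3, 7SK and 7SL are known as genes with promoters of their own, while most other snoRNAs are cut out of the introns of host genes. The mature forms mostly carry no poly(A) tail. The libraries were made from total RNA with a stranded mRNA kit, and how that kit treats such RNAs is not given in the sources used here.

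The sequences that carry the results follow, from GENCODE 29 transcripts on GRCh38, 5′ to 3′ with T for U. All 34 single-locus rows matched such a transcript. The first set is shown because these spliceosomal and histone-processing RNAs were nearly unread in the controls. Capitals mark the letters TTTTTG of the site bound by the Sm protein ring, or TTTGTCTAG in U7. RNU4-1 and RNU4-2 are copies of U4, RNU11 is the U11 of the minor spliceosome, RNU2-2P is a U2 copy and RNU7-1 is U7.
RNU4-1: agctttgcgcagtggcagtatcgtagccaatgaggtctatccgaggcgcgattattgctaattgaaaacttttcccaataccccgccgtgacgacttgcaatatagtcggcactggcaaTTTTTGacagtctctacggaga
RNU4-2: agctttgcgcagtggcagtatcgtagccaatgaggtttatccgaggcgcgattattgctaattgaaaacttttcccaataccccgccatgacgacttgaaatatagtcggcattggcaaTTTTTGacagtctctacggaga
RNU11: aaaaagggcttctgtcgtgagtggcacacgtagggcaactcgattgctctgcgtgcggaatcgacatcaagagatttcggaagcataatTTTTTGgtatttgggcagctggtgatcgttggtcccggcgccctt
RNU2-2P: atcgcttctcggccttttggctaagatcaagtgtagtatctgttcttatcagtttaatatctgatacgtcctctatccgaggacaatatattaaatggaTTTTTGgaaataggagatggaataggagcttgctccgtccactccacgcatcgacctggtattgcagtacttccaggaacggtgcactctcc
RNU7-1: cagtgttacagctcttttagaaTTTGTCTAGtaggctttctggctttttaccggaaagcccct

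RNU11 and RNU7-1 lie at chr1:28648600-28648733 and chr12:6943816-6943878 on the plus strand, and RNU4-1, RNU4-2 and RNU2-2P at chr12:120293097-120293237, chr12:120291763-120291903 and chr11:62841619-62841809 on the minus strand. RNU4-1, RNU4-2 and RNU11 have no annotated gene around them on their strand. RNU7-1 overlaps an exon of C12orf57 and RNU2-2P an exon of WDR74. On the RNA strand TTTTTG was found in 6 of the 10 snRNA rows, against 8.10% of all 17776 GENCODE transcripts of 60 to 350 bases and 10.3% of those annotated as snRNA. RNU4-1 and RNU4-2 were identical at 137 of 141 aligned positions. Reads of such copies can be shared between rows, so each copy's own value is uncertain and sums over copies are given too.

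The second set holds U3, the 3 single-locus box C/D snoRNAs of the host gene NOP56 (SNORD110, SNORD86 and SNORD57), and the 3 box C/D snoRNAs that were lowest at 5 μM relative to DMSO. Capitals mark the C box TGATGA and the last D box CTGA. SNORD86 and SNORD26 do not hold TGATGA.
SNORD3A: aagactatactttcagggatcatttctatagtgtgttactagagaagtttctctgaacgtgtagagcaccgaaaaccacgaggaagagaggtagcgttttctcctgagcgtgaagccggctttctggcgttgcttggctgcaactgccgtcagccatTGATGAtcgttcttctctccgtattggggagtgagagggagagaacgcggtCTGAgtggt
SNORD110: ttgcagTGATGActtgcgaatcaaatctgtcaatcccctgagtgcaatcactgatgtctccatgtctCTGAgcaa
SNORD86: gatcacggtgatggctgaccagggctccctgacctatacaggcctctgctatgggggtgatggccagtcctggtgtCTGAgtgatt
SNORD57: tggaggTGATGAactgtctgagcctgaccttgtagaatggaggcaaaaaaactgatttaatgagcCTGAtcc
SNORD4A: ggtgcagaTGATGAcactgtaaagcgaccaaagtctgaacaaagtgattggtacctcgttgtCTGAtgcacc
SNORD26: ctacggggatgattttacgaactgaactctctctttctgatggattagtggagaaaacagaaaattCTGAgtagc
SNORD101: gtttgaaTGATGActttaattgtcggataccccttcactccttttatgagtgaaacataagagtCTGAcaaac

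SNORD3A lies at chr17:19188016-19188232, and its row in the table spans 699 bases from the same start. The NOP56 snoRNAs lie at chr20:2654212-2654286, chr20:2656097-2656182 and chr20:2656939-2657010. SNORD4A lies in an intron of RPL23A at chr17:28722582-28722653, SNORD101 in an intron of RPS12 at chr6:132815307-132815379, and SNORD26 overlaps an exon of SNHG1 at chr11:62855292-62855366 on the minus strand, while the others are on the plus strand. On the RNA strand TGATGA was present in 12 of 16 single-locus box C/D rows and CTGA in 16 of 16, against 10.7% and 67.5% of the 17776 transcripts. An ACA followed by 3 bases at the 3′ end, the H/ACA signature, was present in 4 of 4 single-locus box H/ACA rows and in 3.17% of the transcripts. The 4 other U3 rows, SNORD3B-1, SNORD3B-2, SNORD3C and SNORD3D, differed from SNORD3A at 1, 1, 1 and 3 of 217 positions.

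Library totals ran from 37655548 to 50303269 counts in the drug experiment and from 25838443 to 31955119 in the knockdown experiment. CDK16 was read 3223 times with the scramble shRNA, 1360 with CDK16-sh1 and 846 with CDK16-sh2. Vimentin (VIM) and CD44, markers of this line, were read at least 34429 and 15802 times in every library. EGFR, another marker, was read between 2265 and 18029 times, lowest at 5 μM Reb with a log2 fold change of -1.88. EPCAM, an epithelial gene expected to be low, was read 125 to 408 times. The estrogen receptor ESR1 and the progesterone receptor PGR were read at most 12 and 16 times, the leukocyte marker PTPRC at most 35 times and the endothelial marker PECAM1 between 4 and 154 times. Mitochondrial transcripts took 7.19%, 8.30% and 16.4% of the counts in DMSO, 1 μM and 5 μM Reb, and 11.3%, 10.4% and 16.2% with scramble, CDK16-sh1 and CDK16-sh2. The part of this share in the results was not tested. In bulk libraries fewer cells of a kind and less RNA per cell cannot be told apart.

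At 5 μM Reb the small RNAs took a larger share of the reads. The 48 rows together had 6756 counts in DMSO, 6278 at 1 μM and 25284 at 5 μM, or 0.0134%, 0.0127% and 0.0671% of the library. After TMM scaling, 32 rows were at least 2-fold higher at 5 μM, 6 were at least 2-fold lower and 10 lay between. Of all 15655 genes at 1 CPM or more, 23.6% were that much higher and 27.2% that much lower. The median log2 fold change was 1.64 for the 48 rows, -0.07 for all genes and 0.42 for the other 282 rows of at most 400 bases. Since the level limit includes the 5 μM library, 16 of the 48 rows passed with less than 1 CPM in DMSO, and all 16 were higher at 5 μM, as the limit makes likely. Among the 32 rows at 1 CPM or more in DMSO, 16 were at least 2-fold higher and 6 lower, with a median of 0.85. That limit still leaves out 8 matched rows at 1 CPM or more in DMSO. With the limit on DMSO alone there were 40 rows, of which 16 were higher and 11 lower, with a median of 0.087. The shares of all genes under the DMSO limit are not given here, and those above are for the limit on the mean. With library totals as the scale, 24 rows were higher and 10 lower with a median of 0.95. On that scale the median of all genes moved to -0.75, with 11.7% of them higher and 43.4% lower.

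The rows were then split by the kind of RNA they name. The 18 rows named as snRNA, U3, 7SK or 7SL had 811 counts in DMSO, 876 at 1 μM and 15502 at 5 μM. Of these, 17 were at least 2-fold higher at 5 μM, with a median log2 fold change of 5.97, and 1 was lower. The 30 other snoRNA and Cajal body RNA rows had 5945, 5402 and 9782 counts. Of these, 15 were higher and 5 lower, with a median of 0.85. This split was made after the values were seen, and 13 of the 18 rows had less than 1 CPM in DMSO. The 5 with at least 1 CPM were RN7SL1, RN7SL2, RN7SK and RNU4-5P, which were higher, and RNU6-395P, which was lower. Among rows at 1 CPM or more in DMSO the medians were 1.71 for these 5 and 0.66 for 27 of the 30 others, or 1.02 and -0.02 with library totals. With library totals as the scale, 16 of the 18 rows were higher and 1 lower, and 8 of the 30 were higher and 9 lower. Of all genes on that scale 11.7% were higher and 43.4% lower.

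**Figure D1:**
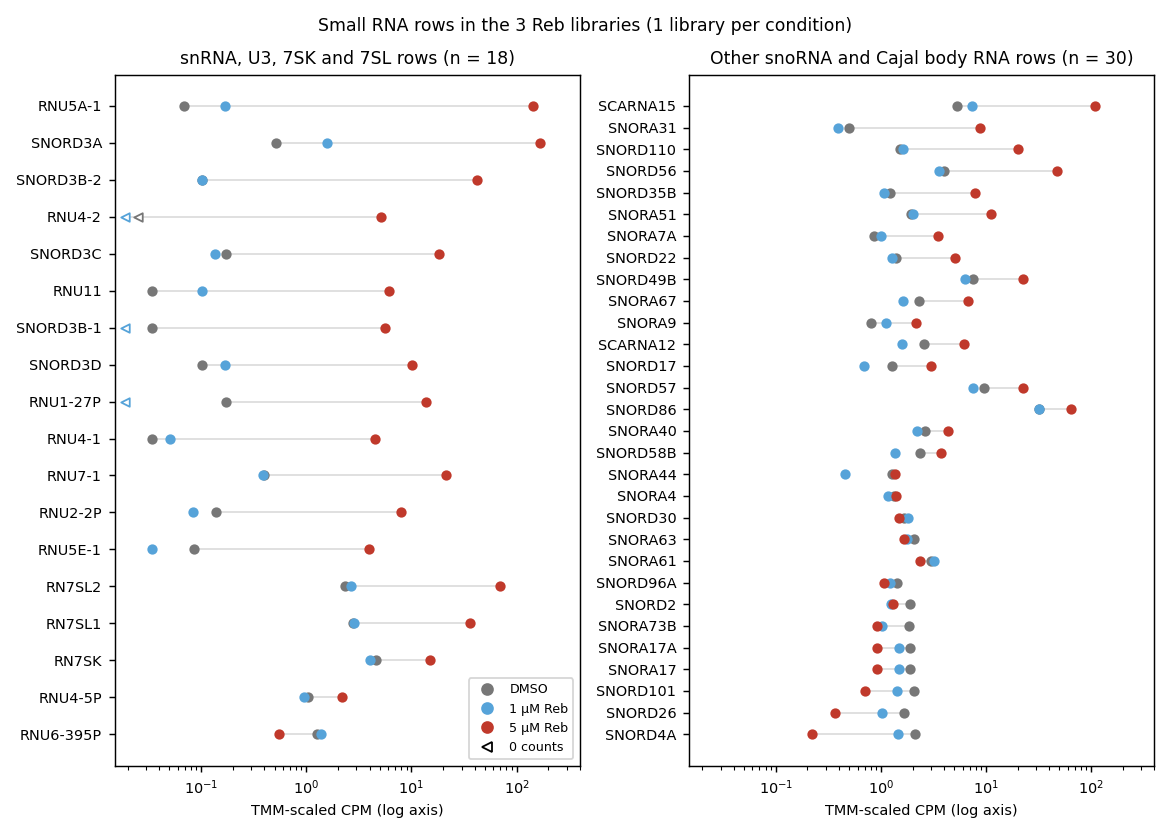
TMM-scaled CPM (log axis) of the 48 small RNA rows in the DMSO, 1 μM and 5 μM Reb libraries, 1 point per library, ordered by the log2 fold change at 5 μM, with open triangles at the left for 0 counts. In the left panel 17 of the 18 rows had their 5 μM point at least 2-fold above DMSO, and in the right panel 15 of 30 did, against 23.6% of all genes. Rows under 1 CPM in DMSO passed the level limit only through the Reb libraries, which favours a rise. Among rows at 1 CPM or more in DMSO, 4 of 5 in the left panel and 12 of 27 in the right were higher. The split into panels was made after the values were seen.

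Among the spliceosomal RNAs, RNU5A-1 had the largest difference of all 15655 genes. RNU5A-1, a U5 RNA that aligns the exons at both splice sites, was read 4 times in DMSO, 10 times at 1 μM and 3855 times at 5 μM. This is a log2 fold change at 5 μM of 10.34, with a 95% Clopper-Pearson interval of 9.66 to 12.90. Such intervals cover counting error only. RNU5E-1 was read 5, 2 and 108 times in the same order, a log2 fold change of 4.99 (4.27 to 7.19). Both U5 rows were near the floor of 3 counts in the DMSO and 1 μM libraries and apart from it at 5 μM.

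U4, which pairs with U6 in the tri-snRNP, gave the same order. RNU4-2 had no reads in DMSO or at 1 μM and 140 at 5 μM, which is at least 101-fold higher against a floor of 3 counts. RNU4-1 was read 2, 3 and 123 times, with a log2 ratio between 5.17 and 10.11 at 5 μM. RNU2-2P was read 8, 5 and 217 times, a log2 fold change of 5.50 (4.87 to 7.10), while its neighbour WDR74 had 2.58. RNU1-27P, an annotated copy of the U1 RNA that reads the 5′ splice site, was read 10, 0 and 372 times. Its log2 fold change was 6.02 at 5 μM.

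RNU11, of the minor spliceosome, and RNU7-1, of histone mRNA processing, were also read far more often at 5 μM. RNU11 was read 2 times in DMSO, 6 at 1 μM and 167 at 5 μM, with a log2 ratio between 5.62 and 10.55 at 5 μM. RNU7-1, whose particle cuts the 3′ end of replication-dependent histone mRNAs, was read 23, 23 and 575 times, a log2 fold change of 5.61 (5.15 to 6.42). C12orf57, whose exon it overlaps, was read 1185, 820 and 2770 times, with 2.33. U47924.31, annotated on the other strand there, had nearly the same counts, 1144, 807 and 2681, and also 2.33. The strand setting of the counting is not given in the sources used here, so reads from either strand cannot be told apart.

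The remaining 2 snRNA rows have pseudogene names, as RNU1-27P above also has, and behaved otherwise than that row. RNU4-5P was read 60, 57 and 59 times, a log2 fold change of 1.05 at 5 μM with TMM scaling and 0.38 with library totals. RNU6-395P was read 74, 82 and 15 times, with a log2 fold change of -1.14. Both lie opposite an exon on the other strand, RNU4-5P opposite XPNPEP1 (log2 fold change 1.49) and RNU6-395P opposite POLR2D (0.05). RNU4-5P was identical to RNU4-1 at 104 of 152 aligned columns.

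Other snRNA genes from a list of 38 well-known short RNA genes fell below the level limit. Of that list 34 were in the table, 12 were among the 48 rows and 22 were below the limit. Of those 22, 17 were at least 2-fold higher at 5 μM and 1 was lower, mostly on few counts. Of all 576 matched rows with a count, 228 were that much higher and 64 lower. RNU4ATAC, the U4 of the minor spliceosome, had 0, 0 and 75 counts, at least 53.9-fold higher at 5 μM. RNU12, the U12 that pairs with the branch site of minor introns, had 0, 0 and 43, at least 30.9-fold higher. RNU6ATAC, the U6 of the minor spliceosome, had 2, 20 and 6, highest at 1 μM. RNU1-1, a U1 gene, had 4, 0 and 65.

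The U3 rows held the largest number of reads at 5 μM. SNORD3A was read 30 times in DMSO, 94 times at 1 μM and 4514 times at 5 μM. The log2 fold change of SNORD3A was 1.55 (1.02 to 2.27) at 1 μM and 8.23 (7.83 to 8.91) at 5 μM. SNORD3A was the one row of the 48 that was at least 2-fold higher at 1 μM, against 1.28% of all genes. SNORD3B-2 was read 6, 6 and 1151 times, SNORD3C 10, 8 and 494 times, SNORD3D 6, 10 and 277 times and SNORD3B-1 2, 0 and 153 times. At 5 μM all 5 were far above both other libraries.

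The U3 transcripts are nearly identical over 217 bases, while their rows span 218 to 791 bases, of which the rest was not compared. Whether a read that matched several U3 loci was counted in more than 1 of these rows is not known. Reads can be shared between such rows, so their sum is given too. It was 54 in DMSO, 118 at 1 μM and 6589 at 5 μM, a log2 fold change of 1.07 (0.63 to 1.60) at 1 μM and 7.98 (7.65 to 8.45) at 5 μM. Without SNORD3A the sum was 24, 24 and 2075, so the value at 1 μM was -0.02 (-0.90 to 0.86). The difference at 1 μM therefore stood in the SNORD3A row alone. The annotated gene that SNORD3D overlaps had a log2 fold change of 6.49 at 5 μM.

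7SL and 7SK were read in every library, so their values do not rest on a near-empty control. RN7SL2 was read 137 times in DMSO, 158 at 1 μM and 1888 at 5 μM, a log2 fold change of 4.87 (4.64 to 5.15). RN7SL1 was read 162, 170 and 983 times, with 3.69 (3.47 to 3.96). They were identical at 295 of 300 aligned columns, and their sum was 299, 328 and 2871, with 4.36 (4.20 to 4.55). RN7SK was read 270, 242 and 411 times, a smaller log2 fold change of 1.71 (1.49 to 1.94). RP11-596C23.6, the noncoding gene around RN7SL2, had 0.91 at 5 μM, while RN7SL1 and RN7SK have no gene around them on their strand.

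**Figure D2:**
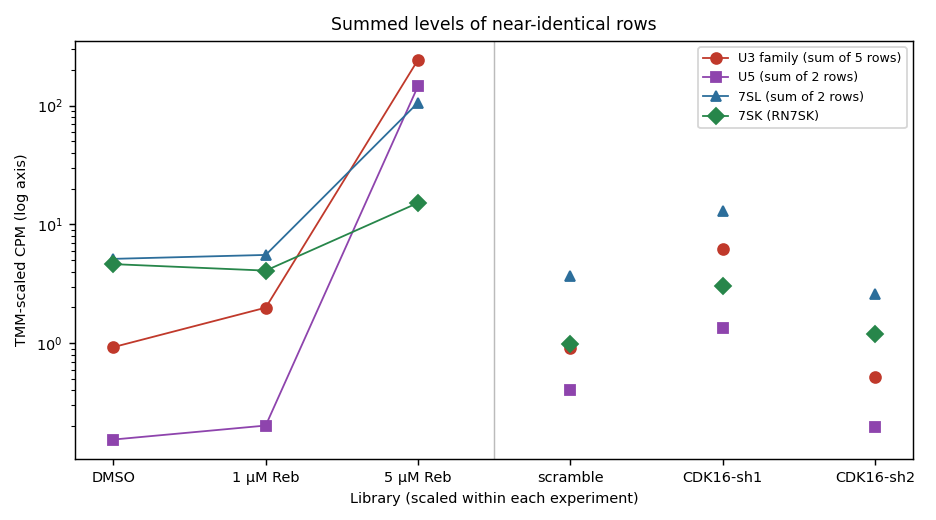
TMM-scaled CPM (log axis) of the summed U3, U5 and 7SL rows and of RN7SK in the 6 libraries, scaled within each experiment, 1 library per point with lines joining the Reb series only. At 5 μM the U3 sum was 243.6 CPM against 0.926 in DMSO, and CDK16-sh1 lay above scramble and CDK16-sh2 for all 4.

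Among the host-encoded rows the most abundant was SNORD86, with 1868 counts in DMSO, 1874 at 1 μM and 1735 at 5 μM. At 5 μM its log2 fold change was 1.00 with TMM scaling and 0.31 with library totals, so its place at the 2-fold line depended on the scale. SCARNA15, a Cajal body RNA name with 4 loci, was read 308, 432 and 2922 times, with 4.34 at 5 μM. One of its loci spans 4325 bases and overlaps an exon of SNHG21 on the same strand, so reads of the 2 cannot be told apart there. FSD2, which has an exon on the other strand there, had 4.66. SCARNA12, in PHB2, was read 150, 94 and 166 times, with 1.24. SNORD49B, in LRRC75A-AS1, was read 440, 374 and 608 times, with 1.57. With library totals SCARNA12 had 0.56 and SNORD49B 0.88, both under 2-fold.

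NOP56, a core protein of the box C/D particle, carries 5 of the snoRNA names within its own gene. NOP56 itself was read 22884 times in DMSO, 21889 at 1 μM and 51957 at 5 μM, a log2 fold change of 2.29 at 5 μM. SNORD110, 2067 bases from the gene's start, was read 89, 96 and 544 times, with 3.68 (3.39 to 4.06). SNORD57, at 4794 bases, was read 559, 445 and 603 times, with 1.21 (1.05 to 1.39) after TMM scaling and 0.53 with library totals. The difference from the host, snoRNA minus NOP56 on the log2 scale, was 1.39 for SNORD110, -1.08 for SNORD57 and -1.29 for SNORD86. All of these overlap an exon of some NOP56 transcript, where reads of the host and of the snoRNA cannot be told apart. SNORD56 and SNORA51 also have a copy there, with 3.56 and 2.51, but their rows merge 7 and 13 loci.

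**Figure D3:**
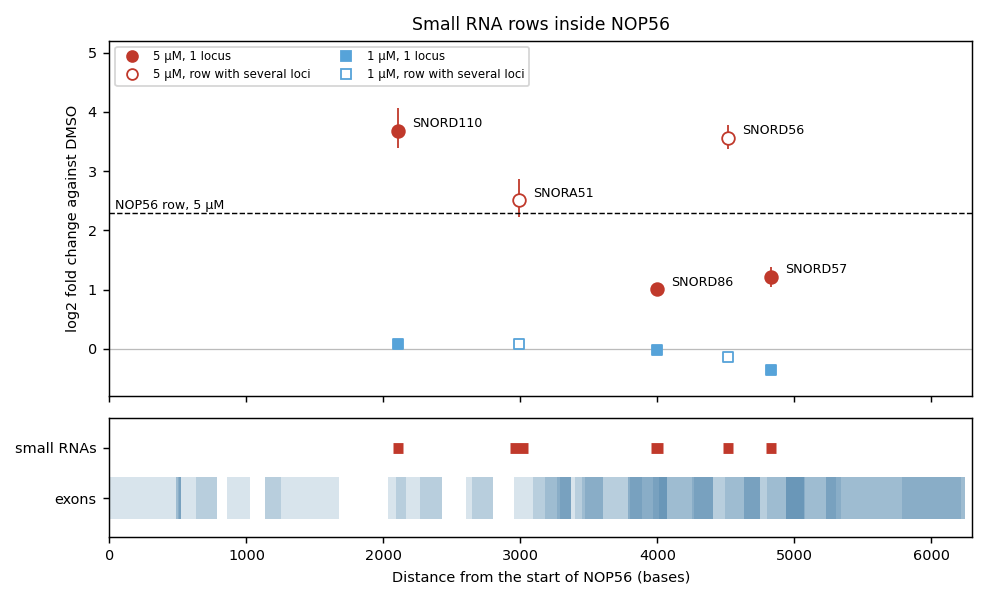
Log2 fold change against DMSO of the 5 small RNA rows inside NOP56 by distance from the gene's start in bases (circles 5 μM with 95% counting intervals, squares 1 μM, open symbols rows with several loci), with NOP56 exons of all annotated transcripts below, darker where shared. At 5 μM SNORD110 was above the NOP56 row (dashed, 2.29), SNORD86 and SNORD57 were below it, and at 1 μM the 5 rows lay between -0.35 and 0.08. All 5 overlap an exon of some NOP56 transcript, where their reads and those of NOP56 cannot be told apart.

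Some host-encoded snoRNAs were lower at 5 μM. SNORD4A was read 122 times in DMSO, 87 at 1 μM and 6 at 5 μM, a log2 fold change of -3.02 (-4.71 to -2.07). SNORD26, a guide in the noncoding host SNHG1, was read 96, 61 and 10 times, with -2.04 (-3.26 to -1.21). SNORD101 was read 121, 85 and 19 times, with -1.51 (-2.34 to -0.86). Their hosts were not lower to the same extent. RPL23A, a ribosomal protein gene, had -0.08, SNHG1 had 1.65 and RPS12, another ribosomal protein gene, had 1.97, so snoRNA minus host was -2.94, -3.68 and -3.48. The 5 μM counts of 6, 10 and 19 limit the precision of these values. SNORD26 overlaps an exon of SNHG1, where reads of the host and of the snoRNA cannot be told apart.

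The H/ACA rows had no common direction. Of 13 rows, 5 were at least 2-fold higher at 5 μM and 2 lower, with a median log2 fold change of 0.10. SNORA31, which merges 27 loci, was read 29, 23 and 235 times, with 4.02, and SNORA51 112, 120 and 301 times, with 2.51. SNORA7A, in an exon of RPL32, was read 50, 60 and 94 times, with 1.97. SNORA67 was read 134, 96 and 184 times and SNORA61 174, 191 and 64 times, with 1.55 and -0.33. With library totals SNORA67 had 0.86 and SNORA61 -1.01. SNORA17A and SNORA17 both had 111, 89 and 25 counts and -1.01. They are 2 rows over the same locus in SNHG7, so they count the same reads and stand for 1 RNA.

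Of the 48 rows, 20 had 1 locus inside an annotated gene, in 18 host genes. Across these pairs the log2 fold change at 5 μM had a median of 1.22 for the small RNAs and 1.38 for the hosts, and 10 small RNAs were below their host. Pearson's r was 0.65 and Spearman's rho 0.59 over the 20 pairs, as a description, since all pairs share the same libraries and 3 share NOP56. In 15 of them the small RNA overlaps an exon of some host transcript, where reads of the host and of the small RNA cannot be told apart, and r was 0.72 and rho 0.71. The other 5 lie in introns, with 0.26 and 0.10. SNORA73B, in RCC1, was read 109, 61 and 25 times, with -0.98 beside -1.70 for RCC1, the exchange factor of Ran. SNORD17, in SNX5, was read 74, 41 and 82 times, with 1.23 beside 1.16. With library totals SNORD17 had 0.55.

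**Figure D4:**
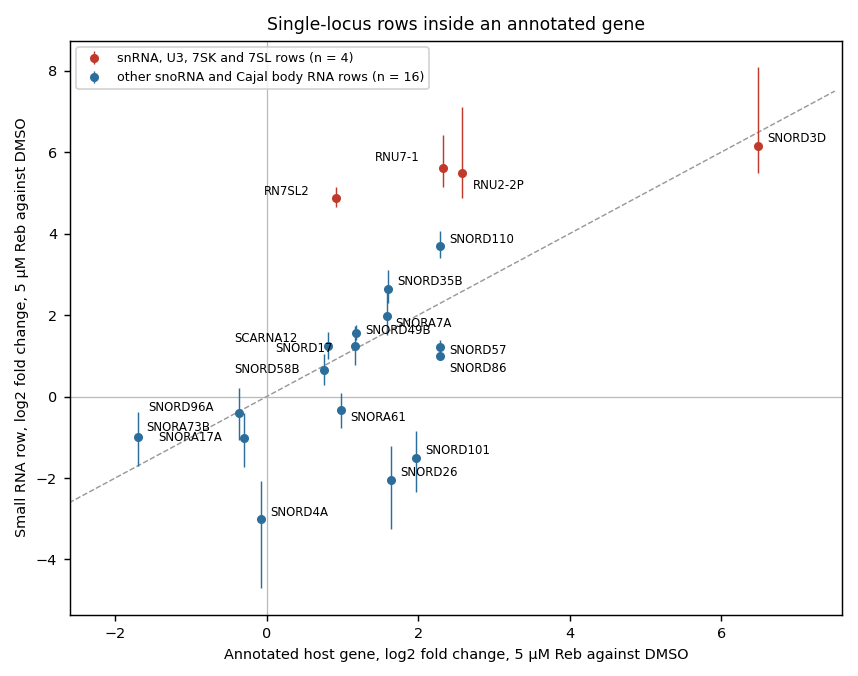
Log2 fold change at 5 μM Reb against DMSO of 20 single-locus small RNA rows (vertical axis, bars are 95% counting intervals) and of the annotated gene around each (horizontal axis), with the dashed line at equal values. RN7SL2, RNU7-1 and RNU2-2P lay far above the line, and SNORD4A, SNORD26 and SNORD101 lay far below it.

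At 1 μM the small RNAs stayed close to DMSO. Only SNORD3A was at least 2-fold higher, and 2 rows were at least 2-fold lower, against 1.92% of all genes, with a median log2 fold change of -0.19. These were RNU1-27P, read 10 and 0 times, and SNORA44, read 74 and 27 times, with -1.40. The 1 μM and 5 μM values share the DMSO library, so they are not independent of each other.

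The knockdown libraries took no part in choosing the 48 rows. For counts in that experiment a mean of 1 CPM over its own 3 libraries was asked for. There 31 of the 48 rows had a mean of at least 1 CPM, and the 17 others were in the table below it. With CDK16-sh1, 4 rows were at least 2-fold higher and 4 lower, against 4.33% and 6.86% of all 15295 genes, with a median log2 fold change of -0.29. With CDK16-sh2, none was 2-fold higher or lower, against 2.2% and 7.62%, with a median of 0.40 and a range of -0.73 to 0.84. The hairpins share the scramble library. With both hairpins as 1 group, edgeR's quasi-likelihood test called 0 of the 31 rows and 0 of the 15295 genes. At an unadjusted p under 0.05 it gave 1 row, SNORD3B-2 (adjusted p = 0.9997 in edgeR's quasi-likelihood test), and 2.5% of all genes, while DESeq2 called 0 and gave 0 rows.

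The 4 rows higher with CDK16-sh1 were RN7SL1, RN7SL2, RN7SK and SNORD3B-2, all known as genes with their own promoters. SNORD3B-2 passed the limit through CDK16-sh1 alone, with 0.441 CPM in scramble and 0.237 with CDK16-sh2. Among the 30 rows at 1 CPM or more in scramble, a limit chosen after seeing the data, 3 were higher and 4 lower with CDK16-sh1. RN7SL1 was read 57 times with scramble, 266 with CDK16-sh1 and 39 with CDK16-sh2, log2 fold changes of 1.91 and -0.42. RN7SL2 was read 44, 161 and 27 times, with 1.55 and -0.57. RN7SK was read 27, 100 and 30 times, with 1.55 and 0.24. SNORD3B-2 was read 12, 105 and 6 times, with 2.67 and -0.73. Each was high with CDK16-sh1 and near scramble with CDK16-sh2, while CDK16 itself was lower with both hairpins.

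Sums over copies, which hold more counts, gave the same order of the libraries. The 5 U3 rows together had 25 counts with scramble, 204 with CDK16-sh1 and 13 with CDK16-sh2, log2 fold changes of 2.66 (2.15 to 3.41) and -0.76 (-1.93 to 0.18). The 2 U5 rows had 11, 44 and 5, with 1.57 (0.75 to 2.83) and -0.82 (-2.91 to 0.61). The 2 7SL rows had 101, 427 and 66, with 1.78 (1.49 to 2.13) and -0.50 (-0.98 to -0.05). RNU4-1 and RNU4-2 together had 2, 4 and 0 counts, too few to show a difference at this depth. These sums were formed after the values were seen.

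**Figure D5:**
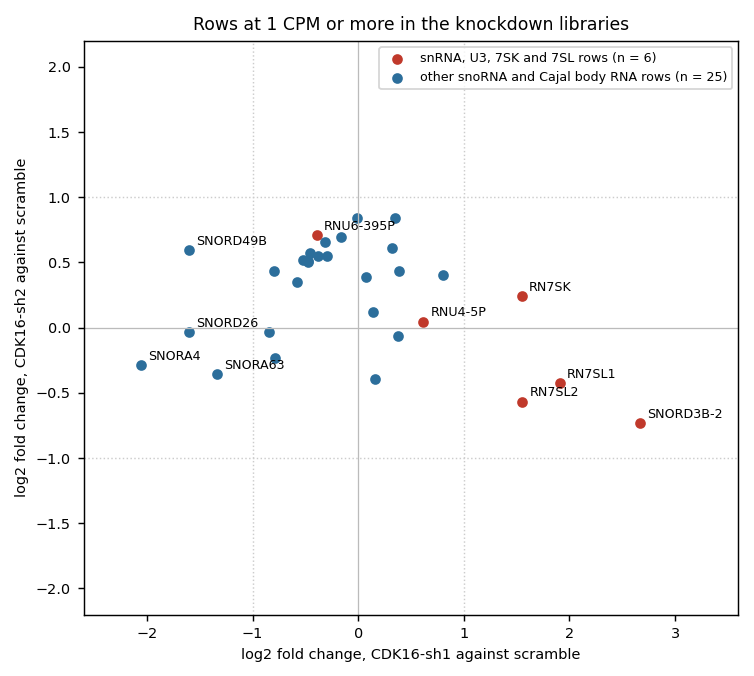
Log2 fold change against scramble of the 31 small RNA rows at 1 CPM or more in the knockdown libraries, CDK16-sh1 on the horizontal and CDK16-sh2 on the vertical axis, with dotted lines at 2-fold. RN7SL1, RN7SL2, RN7SK and SNORD3B-2 lay beyond 2-fold to the right, 4 snoRNA rows lay beyond it to the left, and no row lay beyond it vertically.

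The 4 rows lower with CDK16-sh1 were host-encoded snoRNAs. SNORD49B was read 637 times with scramble, 252 with CDK16-sh1 and 893 with CDK16-sh2, log2 fold changes of -1.61 and 0.59. Its host LRRC75A-AS1 had -1.20 and 0.22. SNORD26 was read 84, 32 and 76 times, with -1.60 and -0.04, while SNHG1 had -0.04 and 0.01. SNORA4 and SNORA63, which merge 5 and 11 loci, had -2.05 and -1.33 with CDK16-sh1. SNORD17, below 1 CPM there, was the one row of the 48 at least 2-fold lower with both hairpins, with 40, 13 and 15 counts.

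The genes of the particles that carry and make these RNAs were counted from lists written with earlier results of these data known. Of all genes 23.6% were at least 2-fold higher at 5 μM and 27.2% lower, which are the shares to read these counts against. At 5 μM, 6 of 12 genes of the box C/D particle and its assembly were at least 2-fold higher and 1 lower, among them NUFIP1, an assembly factor, with 2.40. Of 7 H/ACA particle genes 2 were higher and 1 lower, with NAF1, an assembly factor, at 2.54. With library totals the C/D counts became 3 higher and 4 lower and the H/ACA counts 1 and 2. On that scale the shares of all genes were 11.7% higher and 43.4% lower. Of 33 snoRNA host genes 15 were higher and 3 lower, led by SNHG20 at 3.14, and with library totals 7 were higher and 6 lower.

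The next 4 lists are set against the same shares of all genes, 23.6% higher and 27.2% lower. Of 27 Sm, LSm and SMN complex genes, 5 were higher and 7 lower, with GEMIN2, which holds the Sm proteins during assembly, at -2.56. Of 28 snRNP-specific protein genes, 9 were higher and 10 lower, with RNPC3, a protein of the minor spliceosome, at 2.67 and SNRNP40, a U5 protein, at -2.46. Of 24 genes of SNAPc and Integrator, which start and end snRNA transcripts, 3 were higher and 7 lower, with INTS3 at -3.44. Of 22 genes of RNA polymerase III and its factors, which make U6, 7SK and 7SL, 2 were higher and 8 lower, with GTF3C1 at -3.02. With library totals the higher and lower counts of these 4 lists became 1 and 16, 3 and 13, 1 and 14, and 1 and 12, where 11.7% of all genes were higher and 43.4% lower.

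The remaining lists are set against the same shares of all genes, 23.6% higher and 27.2% lower. Of 31 RNA end processing genes 9 were higher and 8 lower, with the exosome cofactor C1D at 2.69. Of 8 genes of the 7SK particle 3 were higher and 2 lower, with the 7SK capping enzyme MEPCE at -2.33. Of 7 signal recognition particle genes 3 were higher and none lower, with SRP14 at 1.92. With library totals the end processing list had 4 higher and 12 lower, the 7SK list 2 and 4 and the signal recognition particle list 1 and 2. On that scale the shares of all genes were 11.7% higher and 43.4% lower. At 1 μM none of these protein genes was 2-fold higher or lower. Of 3 other short noncoding RNAs at this level 2 were higher at 5 μM. The U1 variant RNVU1-6 had 0, 1 and 121 counts, and the telomerase RNA TERC had 33, 42 and 124. The ribonuclease P RNA RPPH1 had 844, 908 and 493, a log2 fold change of 0.33.

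The rows next to the level limit show what it leaves out. Just inside were SNORA44, at a mean of 1.000 CPM, and RNU5E-1, at 1.003 CPM. Just outside were SNORD84, at 0.980 CPM with 44, 81 and 16 counts, and the pseudogene RNU1-59P, at 0.926 CPM with 65, 72 and 1. The names matched 639 rows in all, of which 576 had a count and 591 were below the limit. Those 591 rows together had 3320 counts in DMSO, 2879 at 1 μM and 3136 at 5 μM. As shares of the library these were 0.00660%, 0.00583% and 0.00833%. After TMM scaling, 196 of the 528 rows below the limit that had a count were at least 2-fold higher at 5 μM and 58 lower, with a median log2 fold change of 0.53. The shares of all genes below the limit are not given here, so it is not known whether these counts differ from those of other rows with few reads.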

How the data were processed

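Libraries of MDA-MB-231 cells were made from total RNA with a stranded mRNA kit and sequenced on a HiSeq X 10. The submitters' processing notes name Trimmomatic, featureCounts of Subread 1.5.1 and GRCh38. The aligner, the strand setting and the handling of reads with several matches are not given in the sources used here. The authors deposited whole-number read counts per gene symbol, with all loci of a symbol merged, and RPKM values, which the authors made from the same counts, the row's length and the library total.

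Counts as deposited gave all main values. Samples were grouped by the treatment in their labels, 1 library per condition. Each treated library was set against DMSO or scramble as a log2 fold change of TMM-scaled CPM (edgeR 4.0.16, R 4.3.3), with 2 added as the prior count, for genes that averaged 1 CPM or more. Rows at 2-fold or more were counted, as the study's methods set that fold. A row at 0 in the control was compared with a floor of 3 counts in that library. Exact 95% Clopper-Pearson bounds on the treated library's part of the 2 counts gave the intervals (scipy 1.17.1). Reads carry no molecular identifiers, so intervals and floors cover counting error only.

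With both hairpins as 1 group against scramble, the quasi-likelihood test of edgeR, adjusted after Benjamini and Hochberg, was run over 15295 genes, and DESeq2 1.42.0 as an alternative. The spread it uses is that between the 2 hairpin libraries. On simulated data for that comparison it found 200 of 200 genes changed 8-fold at a coefficient of variation of 0.1 and 117 at 0.4. The simulation gave both hairpins the same fold. In the real libraries CDK16 itself, with log2 fold changes of -1.52 and -1.82, was not called, so a row not called is not shown to be unchanged. The columns of the drug experiment entered no test.

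Genes around each row, on either strand, were taken from the coordinates deposited with the counts. GENCODE 29 gave the sequences only, from transcripts that lay within the row's locus. Sequences were aligned with Biopython 1.88. The members and the gene lists were chosen with earlier results of these data known. Genes named are RNU5A-1, SNORD3A, the canonical short RNAs, per class the 3 most abundant rows and the 2 highest and 2 lowest at 5 μM, the host genes, and genes of each list with the largest difference. Rows named otherwise were chosen after their values were seen. Alternatives changed the scaling, the prior count, the unit, the level limit and the rows kept. The sequences of some of the rows are not reported here.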

Additional observations from a re-analysis of the deposited data

Results flagged for a closer look

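In 3 of the 48 rows the hairpins lay at least 2-fold on opposite sides of the scramble library, and each hairpin had 1 library. The share of all genes split this way is not given here, so it is not known whether 3 rows are more than other genes would give. SNORD3A, the U3 RNA, was read 8 times with scramble, 62 with CDK16-sh1 and 1 with CDK16-sh2, log2 fold changes of 2.42 and -1.73. RNU5A-1, the U5 RNA, was read 9, 38 and 2 times, with 1.61 and -1.42. RNU1-27P, the U1 copy, was read 3, 21 and 0 times, with 1.97 and -1.36. The difference between the hairpins was not tested. All 3 rows were below 1 CPM in this experiment, and their values with CDK16-sh2 rest on at most 2 counts. The Clopper-Pearson intervals with CDK16-sh2 all reached above 0. They ran from -8.36 to 0.006 for SNORD3A, from -5.31 to 0.21 for RNU5A-1 and up to 1.38 for RNU1-27P. With CDK16-sh1 the lower bounds were 1.61, 0.73 and 0.79 in the same order. A fall with CDK16-sh2 is therefore not shown for these rows.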

How the results depend on the processing

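No paired analysis was possible because each condition had 1 library, and no library could be left out. No row at least 2-fold higher or lower changed its direction under the alternatives run. DESeq2 size factors, scaling each pair of libraries alone and leaving out SNORA17 moved no count by over 1.5 times. At 5 μM Reb, library totals and RPKM each gave 10 rows at least 2-fold lower and a median log2 fold change of 0.95. With library totals 43.4% of all genes were that much lower. No level limit gave 228 of 576 rows higher, 64 lower and a median of 0.63. A limit of 5 CPM gave 13 of 13 rows higher and 0 lower. A limit on DMSO alone gave 16 higher and 11 lower of 40 rows, with a median of 0.087. A limit on the knockdown libraries gave 20 of 48 rows higher, with a median of 0.37. At 1 μM, totals without mitochondrial transcripts gave 2 of 48 rows higher, a prior count of 0.5 gave 3 higher and 4 lower, and RPKM 3 higher. With no limit 46 of 576 rows were higher and 61 lower, with a median of 0. The limit of 5 CPM gave 0 lower, the DMSO limit 0 higher, the knockdown limit 0 higher and 1 lower, and leaving out pseudogene names or rows with several loci 1 lower each. For CDK16-sh1, no limit gave 24 higher and 54 lower of 430 rows, and 5 CPM 0 higher and 1 lower of 10. The knockdown limit gave 7 of 48 rows lower. Single-locus rows gave 2 of 20 lower, with a median of 0.15 in place of -0.29. For CDK16-sh2, no limit gave 48 higher and 42 lower of 430 rows. With 5 CPM 1 of 10 was higher, with a median of 0.56, and with the knockdown limit 1 of 48. The shares of all genes under these other limits are not given here. The use of single-locus rows, the removal of SNORA17 and the scaling by pairs were chosen after seeing the data. The quasi-likelihood test called 0 rows with library totals, with no level limit and with no fold limit, and DESeq2 called 0. Of the 32 rows higher at 5 μM, 24 were also higher with library totals and 32 with DESeq2 size factors. Depth limits the rows with few counts in the control, where a single read moves the fold change.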
